A study of Mus musculus with 2 samples.

Results

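The genes described here make cholesterol, sense it, carry it into and within cells, and export it. They were listed by name, 29 in all, and a probe set was counted for a gene only when that gene was its sole symbol in the array's annotation. Of the 29 genes, 27 had such a probe set, out of 18193 genes named in this way on the array, and they had 62 probe sets between them. Acat2 and Soat1 had none under this rule and were not analysed here. The mice were of the inbred strain C57BL/6, with no allele or transgene named in the labels, and RNA was taken from adipose tissue. One pool came from mice fed HFD32, a high fat diet given to make them obese, between the ages of 6 and 18 weeks, and the other from mice fed CE-2, a normal diet, over the same 12 weeks. Each diet was measured on 1 Affymetrix expression array that held RNA pooled from 3 animals, so there is no replicate and no test between the diets, and pooling hides the spread between animals. Neither the depot nor the sex of the animals is stated in the labels.

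Cells build cholesterol from acetyl-CoA through mevalonate, isoprenoid diphosphates, squalene and lanosterol. The transcription factor SREBP-2 turns on nearly all enzymes of this route. Its precursor is held in the endoplasmic reticulum by the escort protein Scap and by Insig proteins while sterols are plentiful, and it is cut and released when they are scarce. Surplus sterol acts the other way, through the LXR nuclear receptors, which raise the exporters Abca1 and Abcg1 and the ligase Mylip. Fat cells hold a large pool of unesterified cholesterol, much of it at the surface of the lipid droplet, and are known to take up more of it than they make.

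Values are log2 signals, and a difference is the high fat diet signal minus the normal diet signal, so that 1 is a 2-fold ratio. A gene was represented by its brightest probe set, and 11778 genes whose mean signal lay at or above 5.44, the median of all probe sets, were compared. All 27 genes lay above this floor. The only error that can be had is the SD between probe sets of the same gene, 0.27 on the log2 scale over 5131 genes, which covers the probes and not the animals. A signal is called background where it lay under 4.95 on the high fat diet array or 4.92 on the normal diet array, the 95th percentile of 83 probe sets of sensory receptor genes. Of the 62 probe sets, 53 lay above the floor. Differences in bulk tissue can come from fewer cells of a type or from less RNA per cell, and these cannot be told apart.

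Markers of other cells differed strongly between the arrays. Of 15 hepatocyte markers, all were 2-fold lower or more in the high fat diet pool, against 3.29% of all genes compared. Serpina1c was 104-fold lower, and Cyp3a11 and Fga, background with the high fat diet, at least 32.9-fold and 24.9-fold lower. Summed over the list on the linear scale, their log2 level was 9.49 on the high fat diet array and 15.04 on the normal diet array. Signals of 7 of the 15 were background with the high fat diet, and of 0 with the normal diet. Liver is a main organ of cholesterol synthesis, and the part of liver RNA in the signals of the enzymes was not tested. The high fat diet pool had the higher signal of 12 of 13 macrophage markers, 8 of them past 2-fold, against 3.28% of all genes. Gpnmb, Trem2 and Itgax were the farthest apart, with ratios of 10.6, 5.77 and 5.35 on their brightest probe sets. The other probe set of Trem2 differed by only 0.43 on the log2 scale, and that of Gpnmb by 2.18. Summed log2 levels of the macrophage markers were 14.33 with the high fat diet and 13.19 with the normal diet. Adipocyte markers, which check the labelled tissue, were far above background on both arrays. Their summed log2 levels were 16.39 with the high fat diet and 16.38 with the normal diet. Of the 9 measured, 7 were lower and 2 higher with the high fat diet, with a median of -0.09. The sum rests mostly on the brightest markers, near the top of the scale, so it does not show equal amounts of fat cells. Endothelial markers had a median difference of -0.64 and skeletal muscle markers -1.97. All 4 measured pancreas markers were lower, with 3 of them background with the high fat diet, while 5 of 6 epididymis markers were higher with the high fat diet. T and B lymphocyte markers had a median of -0.45 over 7 genes, 6 of them lower. The part of these cells in the differences of the cholesterol genes was not tested.

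Enzymes of cholesterol synthesis had higher signals in the high fat diet pool at most steps, while the genes that sense, take up and export sterol mostly had nearly equal signals. Among 18 measured enzymes, 16 had a positive difference, with a median of 0.68, a ratio of 1.61. The median of all genes compared was 0 and 49.9% of them had a positive difference. At least 1.5-fold higher were 10 of the 18 enzymes, and 8.20% of all genes. At least 2-fold higher were 3 enzymes, Dhcr7, Lss and Nsdhl, and 3.28% of all genes. No enzyme was as much as 2-fold lower, as 3.29% of all genes were. The 9 other genes had a median of -0.05, with 3 positive differences, and 2 of them, Abcg1 and Insig1, were at least 2-fold higher.

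**Figure D1:**
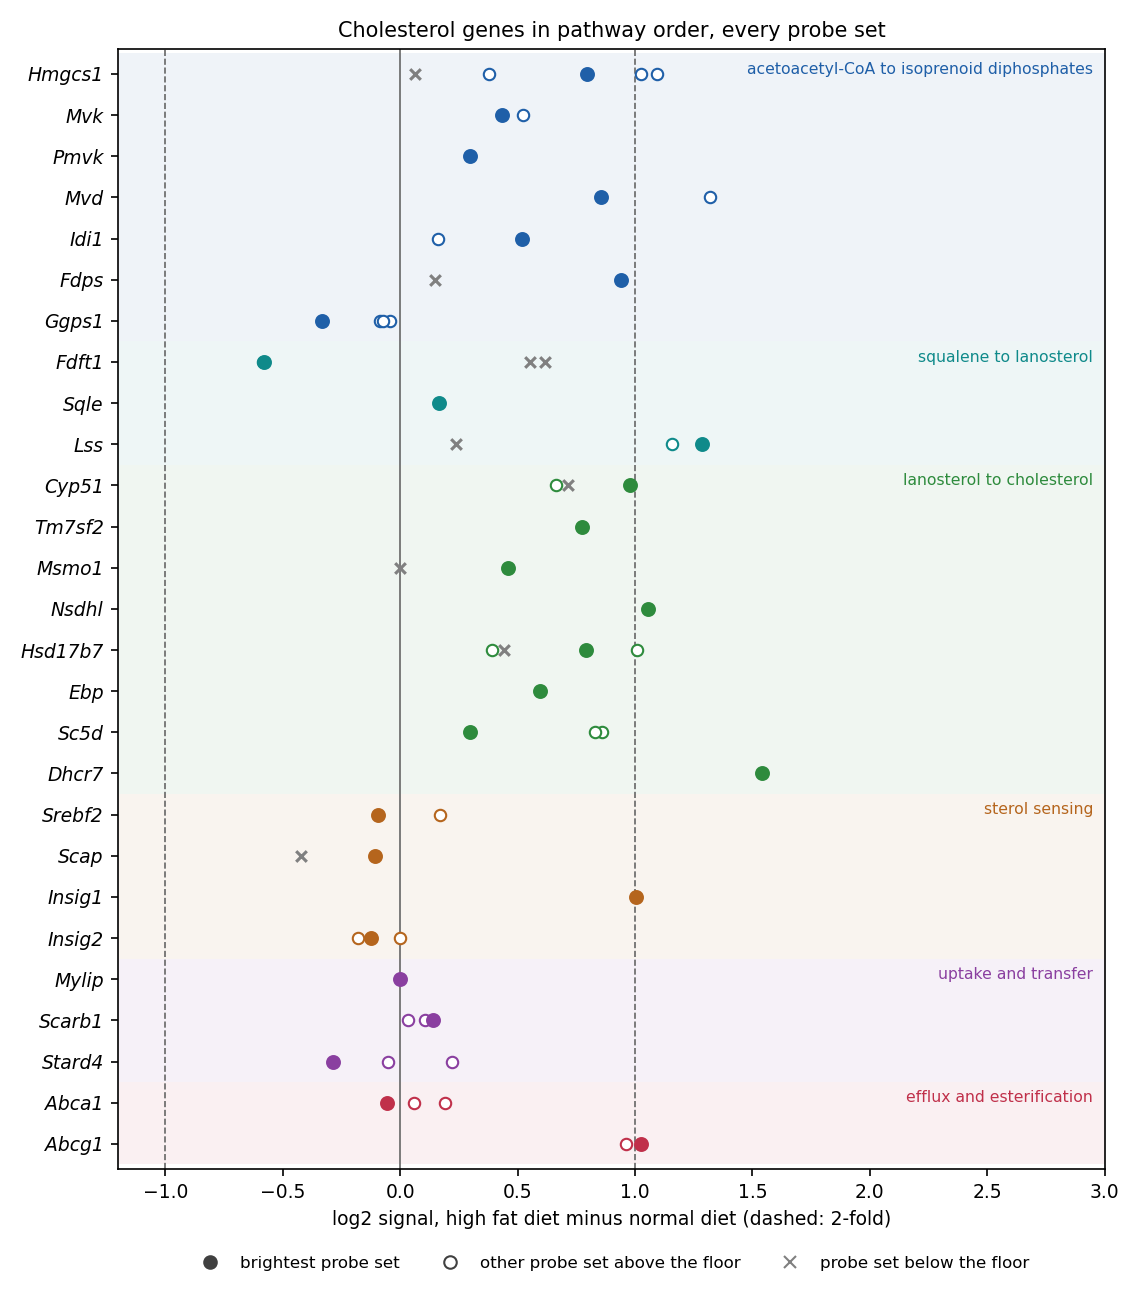
Difference in log2 signal, high fat diet minus normal diet (horizontal axis), for all 62 probe sets of the 27 genes in pathway order. Filled circles are the brightest probe set of a gene, open circles its other probe sets above the floor (for Fdft1 hidden behind the filled one), and crosses those below it. All 8 enzymes from lanosterol to cholesterol lie right of 0, Fdft1 lies at -0.58 and Dhcr7 at 1.54.

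The promoter windows of 5 of these genes are shown because their signals were higher together and SREBP-2 is known to act on such promoters beside the factor NF-Y. They are Hmgcs1, the only gene of the group whose window held a complete sterol regulatory element, and the members past 2-fold for which a window was at hand. Each runs from 250 bases before to 50 bases after an annotated start, 5′ to 3′, from RefSeq (GRCm38.p6). Capitals mark the sterol regulatory element TCACNCCAC, its shortened form CACNCCAC and the NF-Y box CCAAT, on either strand. Dhcr7 has 3 annotated starts, and the window with NF-Y boxes is shown.
Hmgcs1, chr13:119690101-119690400, plus strand: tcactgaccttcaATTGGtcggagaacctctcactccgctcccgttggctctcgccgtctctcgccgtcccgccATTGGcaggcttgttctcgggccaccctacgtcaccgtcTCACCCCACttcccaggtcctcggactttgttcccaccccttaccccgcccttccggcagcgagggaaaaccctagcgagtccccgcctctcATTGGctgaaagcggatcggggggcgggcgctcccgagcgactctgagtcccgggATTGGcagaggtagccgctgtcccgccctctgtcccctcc
Lss, chr10:76531355-76531654, plus strand: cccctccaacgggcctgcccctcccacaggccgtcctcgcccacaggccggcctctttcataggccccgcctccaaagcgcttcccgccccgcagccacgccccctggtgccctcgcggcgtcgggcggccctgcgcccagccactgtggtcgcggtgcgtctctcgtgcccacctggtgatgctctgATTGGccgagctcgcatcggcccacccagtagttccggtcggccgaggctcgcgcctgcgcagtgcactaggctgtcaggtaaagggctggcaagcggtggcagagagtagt
Nsdhl, chrX:72918271-72918570, plus strand: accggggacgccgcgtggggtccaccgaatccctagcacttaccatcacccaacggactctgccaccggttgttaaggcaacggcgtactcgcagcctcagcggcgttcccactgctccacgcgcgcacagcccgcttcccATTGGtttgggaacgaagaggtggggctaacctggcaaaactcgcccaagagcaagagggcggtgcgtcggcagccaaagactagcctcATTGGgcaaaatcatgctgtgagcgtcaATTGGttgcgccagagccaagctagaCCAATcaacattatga
Dhcr7, chr7:143829964-143830263, plus strand: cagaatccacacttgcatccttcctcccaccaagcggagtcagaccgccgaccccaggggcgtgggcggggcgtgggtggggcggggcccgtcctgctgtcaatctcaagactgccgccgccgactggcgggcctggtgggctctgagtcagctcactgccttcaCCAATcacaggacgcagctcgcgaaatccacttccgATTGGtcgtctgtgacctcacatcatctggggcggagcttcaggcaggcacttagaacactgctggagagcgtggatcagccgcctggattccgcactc
Insig1, chr5:28071162-28071461, plus strand: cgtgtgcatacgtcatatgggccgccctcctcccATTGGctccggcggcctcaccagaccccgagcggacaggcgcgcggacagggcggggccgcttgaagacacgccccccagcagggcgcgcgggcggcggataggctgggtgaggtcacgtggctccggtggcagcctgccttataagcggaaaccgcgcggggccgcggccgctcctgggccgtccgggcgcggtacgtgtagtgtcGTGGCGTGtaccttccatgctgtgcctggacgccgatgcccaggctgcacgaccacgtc

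In the Hmgcs1 window the element TCACCCCAC begins 137 bases before the start, between NF-Y boxes that begin 176 and 45 bases before it. In the Insig1 window the shortened element lies on the opposite strand, and its marked letters begin 9 bases before the start. All these positions are counted along the printed strand. A gene was counted where any of its windows held the motif, so a gene with several starts had more windows to match. The full element stood in 1 of 21 measured genes with a window, and in 1.40% of 9495 compared genes with one. The shortened element, chosen after the first search and contained in the full one, stood in 2 of 21, against 7.72%. An NF-Y box stood in 19 of the 21 (90.5%), against 42.2% of the compared genes, and it was present in 10 of 10 genes at least 1.5-fold higher and in 9 of the 11 others. An Sp1 box (GGGCGG) stood in 19 of 21 as well, against 68.0%, and an E-box (CACGTG) in 6 of 21, against 11.7%. NF-Y and Sp1 boxes were thus frequent both in windows of genes with higher signals in the high fat diet pool, such as Lss, and in windows of genes with nearly equal ones, such as Insig2 and Mylip. In Insig2 the NF-Y boxes and the Sp1 boxes lay in windows of different starts, and the E-box of Dhcr7 in a window not shown. All of these are matches of letters and not measured binding sites.

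The early steps lead to isoprenoid diphosphates, and 6 of 7 measured enzymes had the higher signal with the high fat diet, and the median was 0.52. Hmgcs1, the synthase that joins acetyl-CoA to acetoacetyl-CoA, had 12.52 on the high fat diet array and 11.72 on the normal diet array, a ratio of 1.74. Its 3 other probe sets above the floor gave ratios of 2.13, 2.04 and 1.30. All 4 pointed the same way, but they spread over 0.71 on the log2 scale, more than the SD between probe sets, and the fifth was background on both arrays. Mvk and Pmvk, which add phosphates to mevalonate, stood lower in the order of differences. Mvk had 8.16 with the high fat diet against 7.72 with the normal diet, and its other probe set 8.05 with the high fat diet against 7.53 with the normal diet. Pmvk had 9.27 on the high fat diet array and 8.98 on the normal diet array, a difference of 0.30 that is close to the SD between probe sets.

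Mvd, which decarboxylates mevalonate diphosphate to the first isoprenoid unit, had 7.17 on the high fat diet array and 6.31 on the normal diet array. Its second probe set, which can match several transcripts, had 7.21 with the high fat diet against 5.89 with the normal diet, and the ratios were 1.81 and 2.50. Idi1 makes the isomer that starts chain growth, and its signals were 9.90 and 9.39 on the high fat and the normal diet array. The dimmer probe set of Idi1 differed by 0.16 only. Fdps, the synthase of farnesyl diphosphate, had 10.52 with the high fat diet against 9.58 with the normal diet, a ratio of 1.92, and its second probe set was background on both arrays.

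Farnesyl diphosphate is a branch point. By their brightest probe sets Fdps, which makes it, had the higher signal with the high fat diet, and both genes after it had the lower. Ggps1, which extends it to geranylgeranyl diphosphate for protein prenylation, had 8.49 on the high fat diet array and 8.82 on the normal diet array. All 4 probe sets of Ggps1 had negative differences, -0.33 on the brightest and between -0.09 and -0.04 on the others. Fdft1, squalene synthase and the first enzyme committed to sterols, had 9.66 on the high fat diet array and 10.24 on the normal diet array. It was the lowest of the 27 genes with a difference of -0.58, and 8.67% of all genes lay as low or lower. Its second bright probe set gave 8.80 with the high fat diet against 9.38 with the normal diet, and the ratio was 0.67 on both. The 2 dim probe sets of Fdft1 pointed the other way. They had 5.42 and 5.34 with the high fat diet and were background with the normal diet, at least 1.42-fold and 1.34-fold higher, so the probe sets of this gene disagree in direction.

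Sqle oxidises squalene and is often described as a rate-limiting enzyme after mevalonate. Its single probe set had 8.46 on the high fat diet array and 8.30 on the normal diet array, a difference of 0.16 that is smaller than the SD between probe sets. Lss folds squalene epoxide into lanosterol, the first sterol of the route. It had 8.86 on the high fat diet array and 7.58 on the normal diet array, and 1.88% of all genes had a difference as high as its 1.29 or higher. A second probe set, free of a suffix for several transcripts, had 7.86 with the high fat diet against 6.70 with the normal diet, a ratio of 2.23. The third, below the floor, differed by 0.24.

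The 17 genes were followed in order from Hmgcs1 to Dhcr7, leaving out the side branch of Ggps1. Described are passages from a gene to the next that exceeded 0.53, which is 2 SD between probe sets. That SD belongs to a single difference, and a passage subtracts 2 of them, so its error is larger. How often any 2 genes lie this far apart was not counted. The passage from Fdps to Fdft1 was the widest, at -1.52, and those from Fdft1 to Sqle and from Sqle to Lss were 0.74 and 1.12. The others were Pmvk to Mvd at 0.56, Msmo1 to Nsdhl at 0.59 and Sc5d to Dhcr7 at 1.24. These passages depend on the probe sets taken. With the median of all probe sets of a gene, Fdps to Fdft1 was -0.56, Fdft1 to Sqle 0.18 and Sc5d to Dhcr7 0.71. Sqle to Lss was then the widest at 0.99. That median takes in probe sets below the floor, some of Fdps and Fdft1 among them. With the median of the probe sets above the floor, Fdps had 0.94 and Fdft1 -0.58, as on their brightest probe sets. Sc5d had 0.83 with either median.

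All 8 enzymes that turn lanosterol into cholesterol had the higher signal with the high fat diet, with a median of 0.78, of which 6 were past 1.5-fold. Cyp51 removes the first methyl group and had 8.94 on the high fat diet array and 7.96 on the normal diet array. Its second probe set gave a ratio of 1.58, against 1.97 for the brightest, and on the dimmest, background on the normal diet array, it was at least 1.14-fold higher. Tm7sf2, a sterol reductase of the nuclear envelope and endoplasmic reticulum, had 7.79 with the high fat diet against 7.02 with the normal diet. Msmo1, Nsdhl and Hsd17b7 together strip the remaining methyl groups. Msmo1 had 9.32 on the high fat diet array and 8.86 on the normal diet array, and its other probe set was background on both.

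Nsdhl, the dehydrogenase of this complex, had 10.77 on the high fat diet array and 9.72 on the normal diet array, a ratio of 2.08. Hsd17b7, the ketosteroid reductase, had 8.40 with the high fat diet against 7.61 with the normal diet on its brightest probe set. Its other probe sets above the floor gave 2.01 and 1.31 as ratios, so all 3 were higher but spread over 0.61 on the log2 scale. Ebp moves a double bond of the ring, and its signals were 10.24 on the high fat diet array and 9.65 on the normal diet array.

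Sc5d, the desaturase of the penultimate step, had probe sets that differed in size. The brightest had 11.44 on the high fat diet array and 11.15 on the normal diet array, a ratio of 1.23. The other 2, at 10.05 with the high fat diet against 9.20 with the normal diet and at 8.03 with the high fat diet against 7.20 with the normal diet, gave ratios of 1.81 and 1.78. Dhcr7 carries out the last reduction, from dehydrocholesterol to cholesterol, and was the highest of the 27 genes. Its only probe set had 8.89 on the high fat diet array and 7.35 on the normal diet array, a ratio of 2.91, and 1.24% of all genes had a difference as high or higher.

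**Figure D2:**
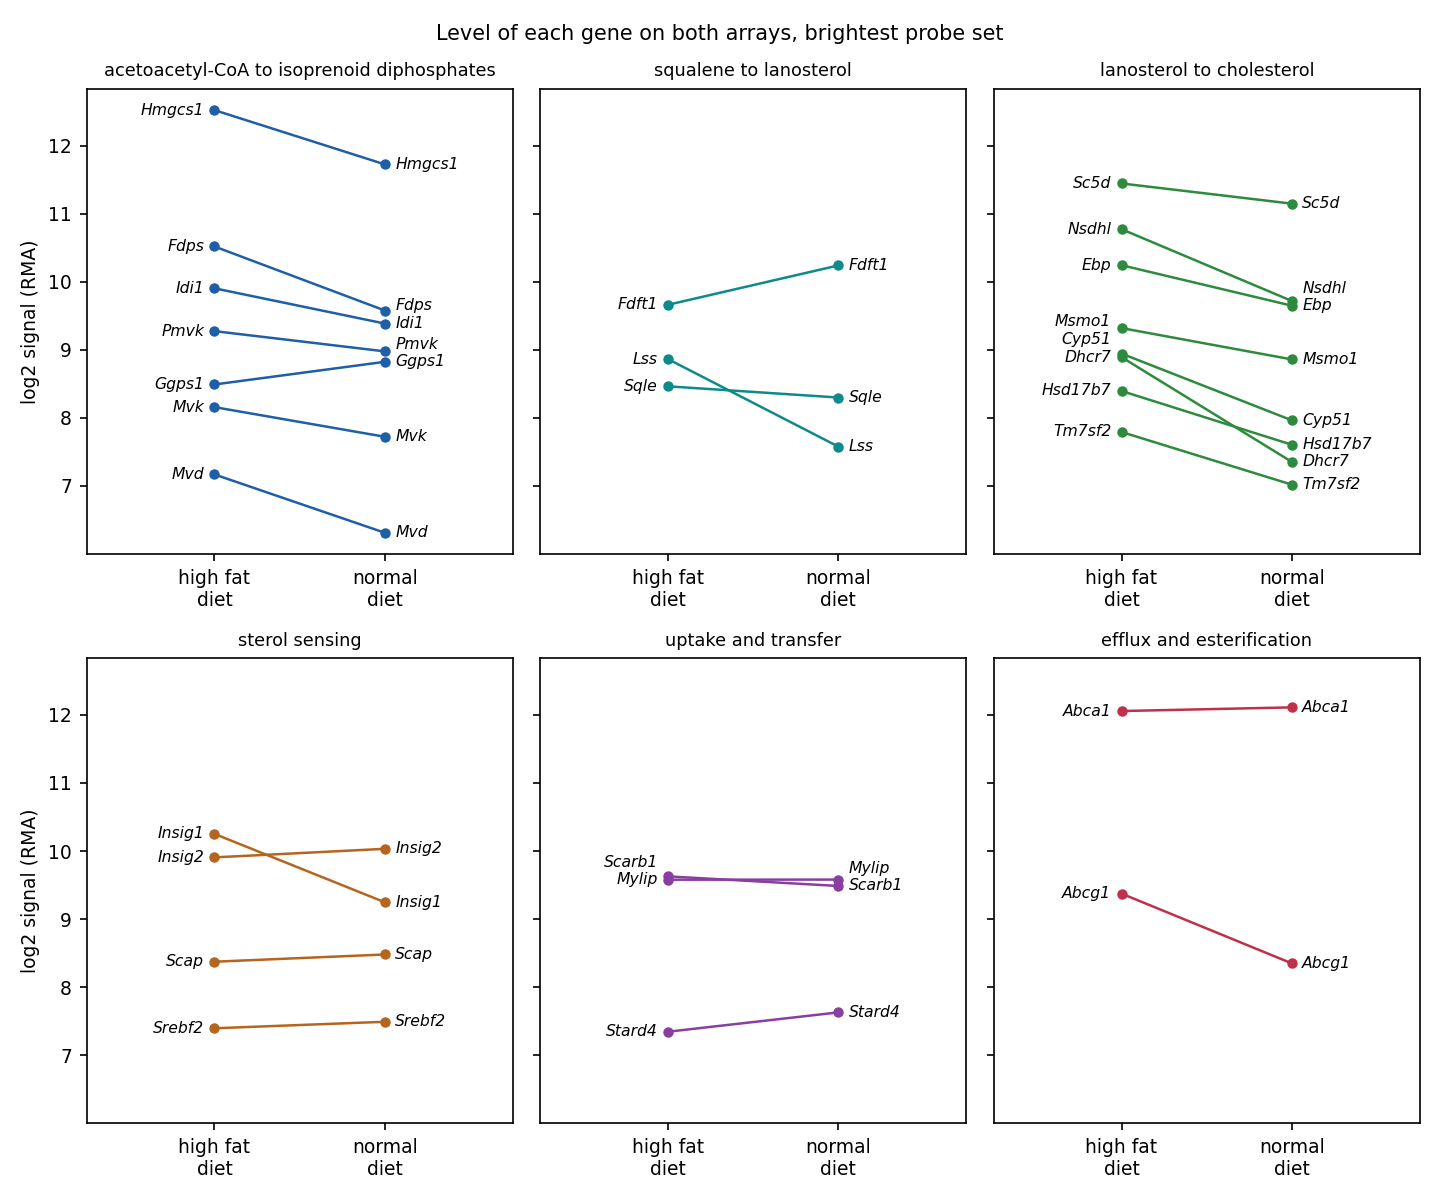
Log2 signal (vertical axis) of the brightest probe set of each gene on the high fat diet array (left) and the normal diet array (right), in 1 panel for each role. Lines join the 2 arrays, and heights of different genes are not comparable because each probe set binds with its own strength. Lines fall to the right in all 8 genes from lanosterol to cholesterol and rise in Fdft1, and Insig1 falls where Insig2 is nearly level.

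The sterol-sensing genes split. Insig1, itself a known target of SREBP-2, had 10.25 on the high fat diet array and 9.25 on the normal diet array. The ratio was 2.01, just past 2-fold. Insig2, which retains Scap as Insig1 does but is not induced in the same way, had 9.91 with the high fat diet against 10.03 with the normal diet. Its other 2 probe sets gave differences of 0 and -0.18, so no probe set of Insig2 was higher on the high fat diet array.

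Srebf2, which encodes SREBP-2, had 7.40 on the high fat diet array and 7.49 on the normal diet array. Its second probe set differed by 0.17 in the other direction, and both differences are smaller than the SD between probe sets. Scap, the escort, had 8.37 with the high fat diet against 8.48 with the normal diet, and its second probe set was background on both arrays. The mRNA signal of the factor was nearly equal on both arrays while those of 16 enzymes were higher. The arrays do not measure how much of the protein is cut and active, and its part in these differences was not tested.

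Uptake and transfer genes had differences between -0.28 and 0.14. Mylip, the ligase that marks lipoprotein receptors for degradation, had 9.58 on both arrays and a difference of -0.0019. Scarb1, the receptor for high density lipoprotein, had 9.63 on the high fat diet array and 9.49 on the normal diet array. Its 3 probe sets agreed closely, between 0.03 and 0.14. Stard4, which carries sterol between membranes, had 7.35 with the high fat diet against 7.63 with the normal diet, and its 3 probe sets ranged from -0.28 to 0.22 and so disagreed in direction.

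The exporters differed from each other. Abca1, which loads cholesterol onto lipid-poor apolipoprotein A-I, had 12.06 on the high fat diet array and 12.11 on the normal diet array. Its dimmer probe sets had differences of 0.06 and 0.19, so the 3 do not share a direction and all lie within the SD between probe sets. Abcg1, which passes cholesterol to high density lipoprotein and is abundant in macrophages, had 9.37 on the high fat diet array and 8.35 on the normal diet array. A second probe set had 6.73 with the high fat diet against 5.77 with the normal diet, and the ratios were 2.04 and 1.95. Macrophage markers were higher in the same pool, in 12 of 13, and their part in this was not tested. Both exporters are known LXR targets, and their differences of -0.05 and 1.03 lie farther apart than the SD between probe sets.

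In the order of all 27 genes the gap between neighbours was 0.25 at most and never exceeded the SD between probe sets, in 26 gaps. Neighbours in this order are thus not told apart, and the order from Dhcr7 at 1.54 over Ebp at 0.60 and Mylip near 0 to Fdft1 at -0.58 is that of these 2 pools only, since the spread between animals is unknown and the first 3 of these genes have 1 probe set each. Where several probe sets of a gene lay above the floor, in 16 genes, their SD was 0.22, against 0.27 in all genes. In 3 of these genes, Srebf2, Stard4 and Abca1, they took both signs. In 4 genes, Hmgcs1, Hsd17b7, Sc5d and Stard4, they ranged over more than 0.5. Over the 53 probe sets above the floor 38 had a positive difference and 10 were at least 2-fold higher, against 3.04% of 20090 such probe sets on the whole array.

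**Figure D3:**
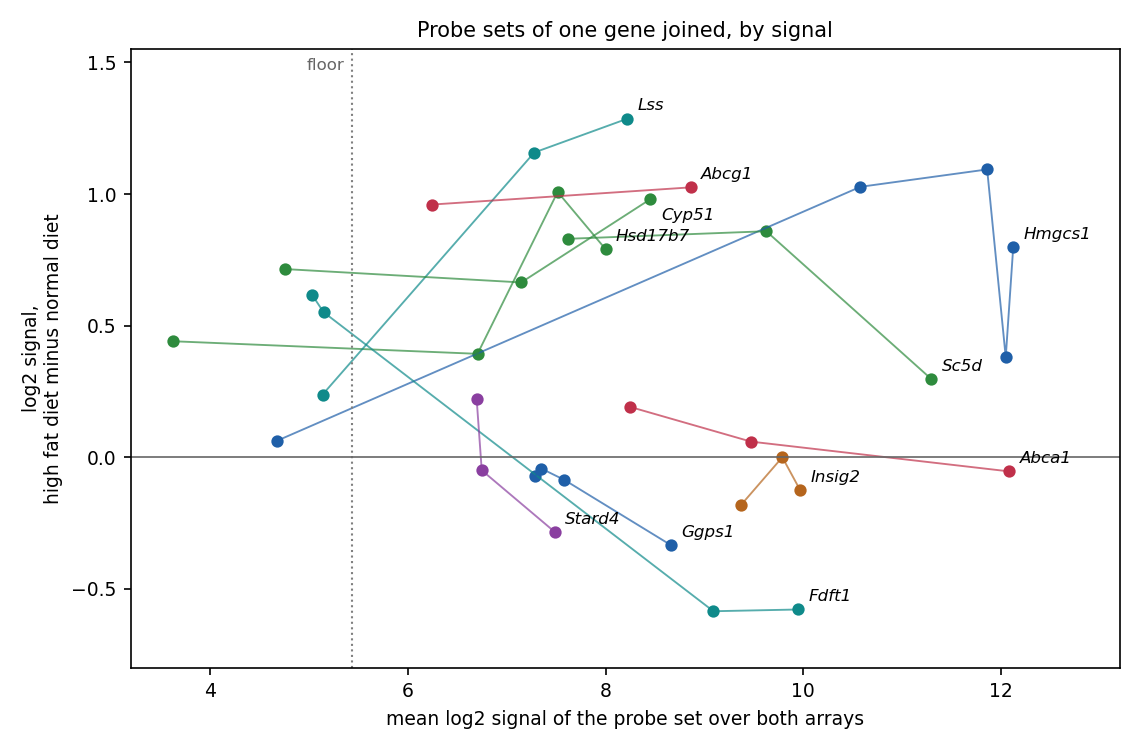
Difference in log2 signal, high fat diet minus normal diet (vertical axis), against mean log2 signal over both arrays (horizontal axis), with the probe sets of a gene joined by a line, for 11 genes with several. The dotted line is the floor at 5.44. Sc5d shows its smallest difference, 0.30, on its brightest probe set, Lss keeps 1.29 and 1.16 on its bright probe sets, and the 2 probe sets of Fdft1 below the floor lie above 0 where its bright ones lie below it.

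Genes next to this pathway were counted from lists chosen for their function. Of 20 other genes of sterol synthesis and trafficking above the floor, 12 had a positive difference, against 49.9% of all genes. Their median was 0.34. Past 2-fold, 3 were higher and 0 lower, against 3.28% and 3.29% of all genes. The 3 were Nceh1, a hydrolase of cholesteryl ester in macrophages, Lipa, the acid lipase of lysosomes, and Pltp, the phospholipid transfer protein. Nceh1 had 9.24 on the high fat diet array and 7.32 on the normal diet array, a ratio of 3.78. Lipa had 10.57 with the high fat diet against 9.02 with the normal diet, and Pltp 12.75 with the high fat diet against 11.75 with the normal diet. Macrophage markers, higher in 12 of 13, moved the same way as these genes, and their part was not tested. The 11 genes of the isoprenoid branch, which make dolichol, ubiquinone and prenylated proteins, had a median of 0.11, with 8 positive differences and none past 2-fold in either direction.

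Other sterol regulators had a median of -0.03 over 11 genes, with none past 2-fold. Positive differences were 5, against 49.9% of all genes. Srebf1, whose product drives fatty acid synthesis, had 10.74 on the high fat diet array and 10.90 on the normal diet array. Nr1h3, which encodes LXR alpha, had 9.25 with the high fat diet against 8.86 with the normal diet, a ratio of 1.31. Oxysterol and bile acid enzymes had 4 genes above the floor, all with negative differences and a median of -0.74. Liver makes bile acids, the 15 hepatocyte markers were lower in the same pool, and their part here was not tested. Cyp7b1, an oxysterol hydroxylase, was background with the high fat diet and had 6.89 with the normal diet, at least 3.82-fold lower. Of 11 other efflux and LXR target genes, 4 had a positive difference and the median was -0.24. Abcg2, a transporter of drugs and urate, had 8.74 on the high fat diet array and 10.54 on the normal diet array, 3.49-fold lower.

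Most lipogenic genes that SREBP-1 drives stood on the other side of 0 from most cholesterol enzymes. Of 14, 3 had a positive difference, and 2 of these were at least 1.5-fold higher, against 8.20% of all genes. At least 1.5-fold lower were 7, against 8.52% of all genes, and at least 2-fold lower were 2, against 3.29%. The median was -0.57, against 0.68 in the 18 cholesterol enzymes. Acaca, which makes malonyl-CoA, was 3.06-fold lower, with 9.90 on the high fat diet array and 11.51 on the normal diet array. Fads1, a fatty acid desaturase, was 2.41-fold lower. Liver also expresses these genes, the 15 hepatocyte markers were lower as well, and the part of liver RNA here was not tested. Among the cholesterol enzymes Fdft1 lay at the 1.5-fold line, under it at -0.58 on its brightest probe set and just past it on the second bright one and, at -0.59, under quantile normalization and centring, while 8.52% of all genes were at least 1.5-fold lower. The difference between these lists was not tested, since each diet has 1 array.

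**Figure D4:**
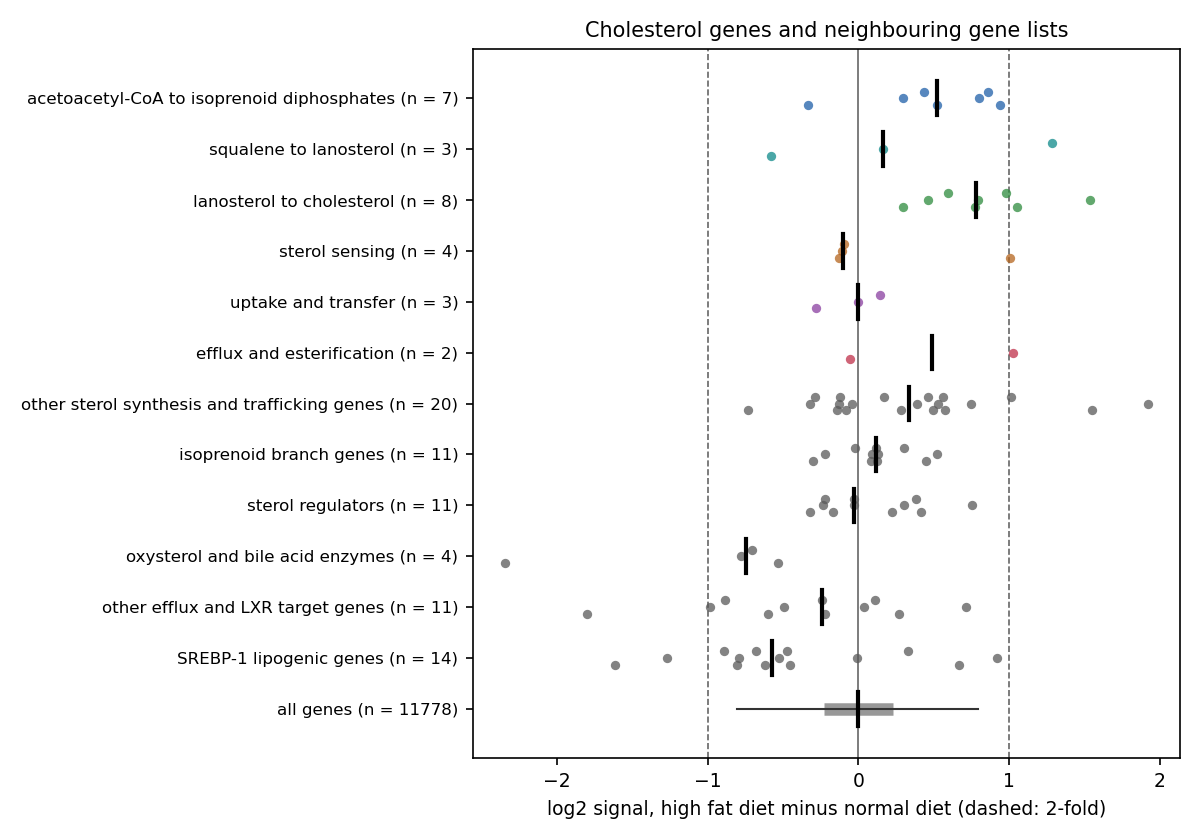
Difference in log2 signal, high fat diet minus normal diet (horizontal axis), for each gene above the floor in the 6 roles of the cholesterol genes (coloured) and 6 neighbouring lists (grey), with n in the labels and a black bar at each median. For all genes the thick bar spans the quartiles, -0.23 to 0.23, and the thin line the 5th to 95th percentiles, -0.80 to 0.79. The enzymes from lanosterol to cholesterol centre on 0.78 and the SREBP-1 lipogenic genes on -0.57.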

How the data were processed

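Expression was measured in 2 arrays of pooled adipose RNA, 1 for each diet. The authors deposited log2 signals of 45101 probe sets on each array and made them with RMA, per the submitters' processing notes. RMA corrects background, makes the arrays alike in distribution and summarises probes, so a change in total RNA is removed and differences shrink at both ends of the scale. After sorting, the columns differed by at most 0.14. The log2 scale was read from the values, which ran from 2.06 to 14.21 (high fat diet) and from 2.04 to 14.28 (normal diet). No version of RMA is stated.

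Gene names came from the platform annotation in GEO, which may be outdated: of the probe sets, 34945 had 1 symbol, 932 several and 9160 none, and 64 controls were left out. All 27 measured genes matched RefSeq (GRCm38.p6) by gene ID. Differences and counts were computed with Python 3.11.15 and pandas 2.3.3 and checked on simulated data. Genes at least 2-fold apart were counted. Where the dimmer array was background, the ratio was computed against background and is written "at least". The number of arrays limits the precision.

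All members are named. Of the other lists, genes past 2-fold (at most 3 in each direction), Srebf1 and LXR genes are named, and of the hepatocyte and macrophage markers the 3 farthest from 0. The members, lists and motifs were chosen with earlier results of these data known, and no list is independent evidence. Alternatives changed the probe set, floor, background, normalization and fold. RefSeq promoter windows were found for 21 of the 27 measured genes.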

Additional observations from a re-analysis of the deposited data

How the results depend on the processing

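Each member with a difference beyond the SD between probe sets kept its direction under 9 other settings, wherever it had a value. Of these settings 1, the median of the probe sets above the floor, was chosen after seeing the data. Moving the floor or raising signals to background could not change the value of a member's brightest probe set. Direction was thus fixed under those settings. With the median of all probe sets, Fdft1 (-0.01), Stard4 (-0.05) and Ggps1 (-0.08) kept their sign but lay near 0. The number of cholesterol genes at least 2-fold higher was 5, lay between 4 and 6 under the other settings at that fold, and was 12 at 1.5-fold. It was 4 under quantile normalization and under centring on probe sets of like signal, where Insig1 had 0.99. Over all genes, 966 were higher and 1004 lower at 1.5-fold, against 386 and 388 at 2-fold, and with the floor at the 75th percentile, which leaves 6933 genes, 190 were higher and 132 lower. Medians of the 6 roles moved by less than the SD between probe sets. Single genes moved more where probe sets differ. With the median of all probe sets, which takes in those below the floor, Sc5d had 0.83, Cyp51 0.71, Fdps 0.54 and Fdft1 -0.01. With the median of those above the floor, Sc5d had 0.83, Cyp51 0.82, Fdps 0.94 and Fdft1 -0.58. With only probe sets specific to a transcript by their suffix, Hmgcs1 had 0.38. That last setting leaves 24 of the 27 genes and the higher floor 23. Signal over background limits the dim probe sets, 5 of which were background on both arrays and 3 on the normal diet array. No paired analysis was possible because each diet has 1 array. Pooling and a single array for each diet leave the spread between animals unknown.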
